A study of Mus musculus with 24 samples.

Results

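The genes described here are 10 mouse genes of bile acid synthesis and transport, namely Cyp7a1, Cyp8b1, Cyp27a1, Cyp7b1, Baat, Slc27a5, Abcb11, Abcb4, Slc10a1 and Nr0b2. Their probes were chosen by name, as those whose gene name in the scanner output is exactly that of a member, out of 37074 gene names on the array. All 10 genes were on the array with 16 probes in all, and all 16 probes were among the 30003 that were bright enough to be tested, which stand for 20192 gene names. Liver RNA of 24 male C57Bl6J mice, all from the third generation (F3) of their lineage, was hybridised to single-colour (Cy3) Agilent arrays, 1 per mouse. The reference group (STD_Cont in the labels, 9 mice) came from the lineage whose diet was supplemented with high-oleic sunflower oil as the control fatty acid, and was challenged with a low-fat diet. The HFoleic group (HFD_Cont, 8 mice) came from the same lineage and received the obesogenic diet, rich in both fat and sucrose. The HFepa group (HFD_O3, 7 mice) was given that obesogenic diet but belonged to the omega 3 lineage, whose supplement was a fish oil with much EPA (eicosapentaenoic acid). Since the EPA lineage has no group on the low-fat diet among the samples, HFepa minus reference joins diet and lineage, and the age of the mice is not given in the sources used here. The mice were killed while fasting, a state in which these genes are known to move, and whether litters were shared is not stated. The p-values treat the mice as independent, and could be too small if litters were shared.

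Bile acids are made in hepatocytes from cholesterol. The classical route starts with Cyp7a1 and the alternative route with Cyp27a1 followed by Cyp7b1. Cyp8b1 directs the product towards cholic acid, and Slc27a5 and Baat join the finished bile acid to coenzyme A and then to an amino acid. Hepatocytes take bile acids back up from blood through Slc10a1, and export them into bile through Abcb11, beside the phospholipid that Abcb4 moves into the same canaliculus. Bile acids returning to the liver activate the receptor FXR (Nr1h4), which raises Nr0b2 (SHP), a repressor of Cyp7a1 and Cyp8b1, and raises Abcb11.

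Promoter sequences were at hand for 6 of the 10 genes, from RefSeq on build GRCm38.p6. The letters of a known receptor site were found in the 250 bases before the start site of 4 of them, and that window is shown for the 3 whose HFoleic difference was largest. They are Nr0b2 at chr4:133553126-133553375 on the plus strand, Cyp8b1 at chr9:121916306-121916555 on the minus strand and Abcb11 at chr2:69342617-69342866 on the minus strand. Capitals mark TCAAGG, the core letters bound by the receptor NR5A2, in Nr0b2, CAAAGTCCA, a site of HNF4A, in Cyp8b1, and TGACCT, the reverse complement of AGGTCA, the core letters bound by many nuclear receptors, in Abcb11.
Nr0b2: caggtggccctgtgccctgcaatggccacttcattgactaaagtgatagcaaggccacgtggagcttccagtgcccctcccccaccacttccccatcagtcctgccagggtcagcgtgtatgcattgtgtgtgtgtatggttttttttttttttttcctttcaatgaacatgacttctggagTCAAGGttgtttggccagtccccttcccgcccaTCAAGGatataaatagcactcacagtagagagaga
Cyp8b1: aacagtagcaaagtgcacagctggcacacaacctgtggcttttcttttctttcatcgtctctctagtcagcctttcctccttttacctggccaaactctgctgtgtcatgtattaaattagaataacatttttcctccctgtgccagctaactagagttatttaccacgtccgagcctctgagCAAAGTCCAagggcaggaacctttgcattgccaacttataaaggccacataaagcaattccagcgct
Abcb11: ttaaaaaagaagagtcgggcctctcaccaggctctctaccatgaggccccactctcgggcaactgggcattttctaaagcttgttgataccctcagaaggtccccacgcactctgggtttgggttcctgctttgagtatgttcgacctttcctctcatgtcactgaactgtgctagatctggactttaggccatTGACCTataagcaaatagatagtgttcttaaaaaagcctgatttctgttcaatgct

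Each motif was searched on both strands, and the motifs do not overlap in these windows. TCAAGG stands at -68 and -35 relative to the start site of Nr0b2, and 12.5% of 32851 promoter windows of the same length hold it. CAAAGTCCA stands at -67 in Cyp8b1 and is held by 0.384% of the windows. AGGTCA, at -56 in Abcb11, is held by 14% of the windows and was also found in 1 of the 2 windows of Slc10a1. The E-box CACGTG, held by 6.02% of the windows, was found once in Nr0b2 and is not in capitals. A match is a description of the letters and not of binding.

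Between 28804 and 34432 of 56605 probes per array were well above background. All 8 hepatocyte markers were measured, with a mean log2 signal per mouse of 16.41 to 16.63. Of 6 cholangiocyte markers 4 were measured (7.30 to 9.36; Epcam and Cftr did not pass the filter on dim probes), as were 6 of 6 stellate cell markers (7.55 to 9.76). In bulk liver, fewer cells of a type and less RNA per cell cannot be told apart. Reference replicate 5 stood apart. Its log2 signal exceeded that of all other 23 mice for the collagen genes Col1a1 (11.18, others 6.30 to 9.02) and Col3a1 (12.41, others 8.05 to 10.28), for Spp1 (13.26, others 10.13 to 11.56) and for the bile duct gene Krt19 (8.06, others 6.01 to 7.52), and it was below all others for Sult2a8, a bile acid sulfotransferase (11.22, others 15.43 to 16.08). The same mouse had the lowest signal of all mice for Cyp8b1, Cyp7b1, Baat, Slc27a5 and the second probe of Slc10a1, but not for Cyp7a1 or Abcb11. On the brightest probe of Slc10a1 it had the highest signal (18.01, others 17.80 to 17.97). The part of the other cell types in the values of this mouse was not tested. Differences without it are given for some genes only, and those of other genes may also depend on it.

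In HFoleic mice, Cyp7a1, the rate-limiting enzyme of the classical route, fell to 0.327 of its reference level, while Abcb11, the bile salt export pump, and to a small extent Slc27a5 rose. Nr0b2 was higher by 0.81 log2 units and Cyp8b1 lower by 0.49, neither past the threshold. Of the 10 genes, 2 were called higher and 1 lower by limma at an adjusted p under 0.05, where 4.52% of all 20192 genes were called higher and 3.55% lower. At an unadjusted p under 0.05 there were 4 of the 10 genes, against 22.3% of all genes. The median difference of the 10 genes was -0.06, and that of all genes -0.01. In HFepa minus reference and in HFepa minus HFoleic, 0 of the 10 genes were called.

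**Figure D1:**
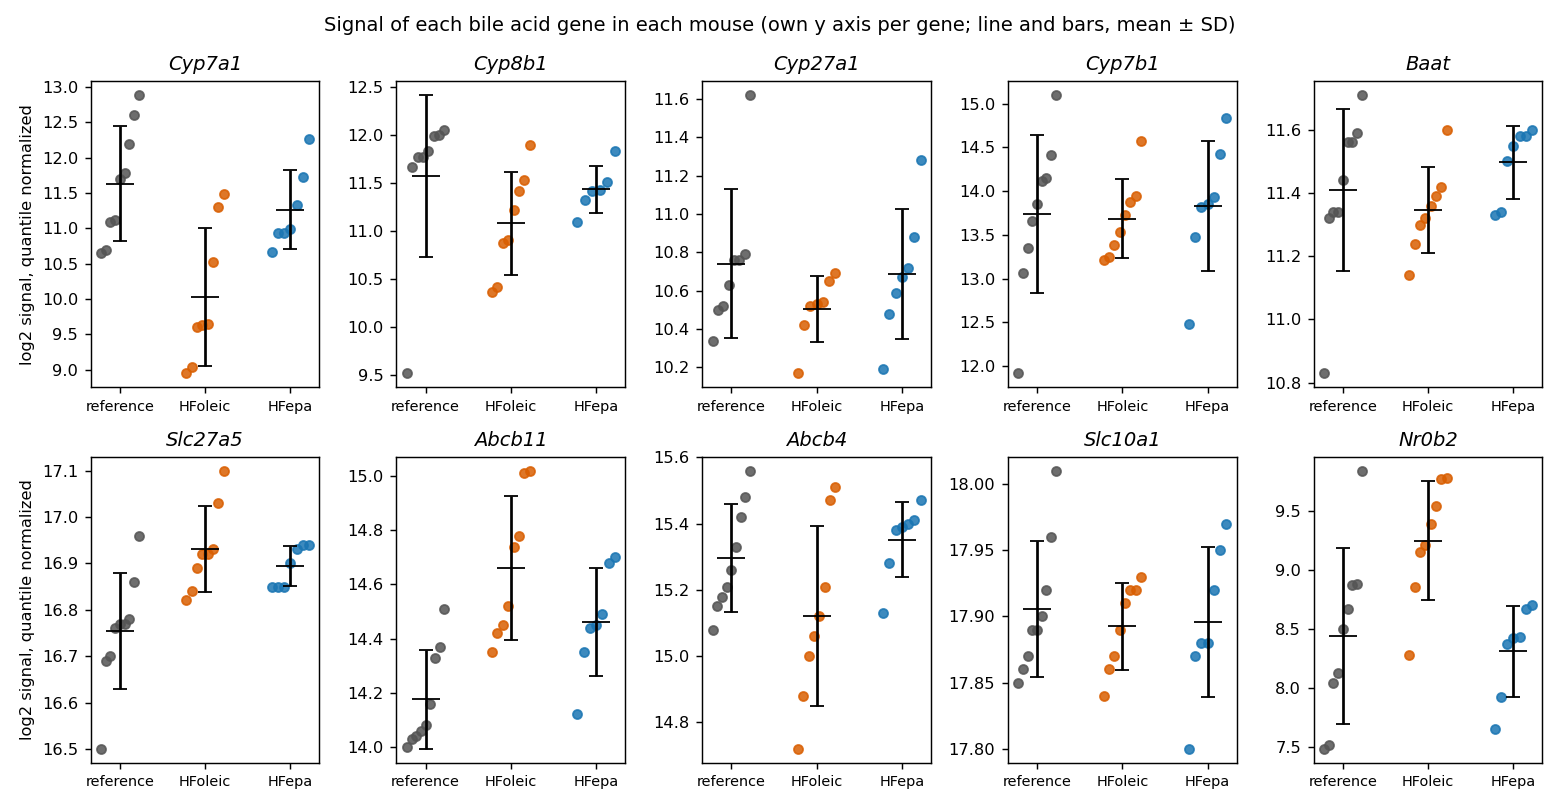
Quantile normalized log2 signal (y axis, own scale per gene) of the brightest probe of each of the 10 genes in each mouse (points), by group (x axis), with the group mean and SD as line and bars. For Cyp7a1, 6 of 8 HFoleic mice lie below every reference mouse and every HFepa mouse, and for Cyp8b1 a single reference mouse lies at 9.52, far below the others.

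Cyp7a1 was read from a probe at chromosome 4, 6193456 to 6193515 (minus strand, build mm9). Its log2 signal ranged from 10.65 to 12.89 with a median of 11.70 in the reference mice, from 8.95 to 11.49 with a median of 9.63 in HFoleic mice, and from 10.67 to 12.27 with a median of 10.99 in HFepa mice. HFoleic replicates 5 and 6, at 11.31 and 11.49, were inside the reference range, and the other 6 HFoleic mice lay below all mice of the other groups. The difference, HFoleic minus reference, was -1.61 log2 units (SE 0.37, 95% confidence interval -2.37 to -0.85, limma adjusted p = 0.00821), which is 0.327 of the reference level, and 8 of 8 HFoleic mice were below the reference mean. It was -1.97, -1.42 and -1.29 within slides 1, 2 and 3, each of which held all 3 groups, and -1.92 and -1.20 within slide rows 1 and 2. The call held in 24 of 24 leave-outs of a mouse (-1.82 to -1.45) and in 15 of 15 other alternatives (-1.91 to -1.16).

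The second probe of Cyp7a1 is annotated to another transcript (ENSMUST00000147346) and was well above background on only 7 of 8 HFoleic arrays. It differed by -0.58 in HFoleic (adjusted p = 0.125), with 6 of 8 mice below the reference mean, and the mean of both probes by -1.16 (adjusted p = 0.0157). Both differences rest on 7 reference mice, since the second probe had no value in reference replicates 6 and 8. HFepa mice differed from the reference by -0.37 (interval -1.15 to 0.42, adjusted p = 0.744) on the bright probe, with 5 of 7 mice below the reference mean.

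HFepa minus HFoleic was 1.24 for Cyp7a1 (interval 0.44 to 2.05, limma adjusted p = 0.28), with 7 of 7 HFepa mice above the HFoleic mean. This difference between the lineages under the same diet did not pass the threshold in any of the 24 leave-outs (adjusted p 0.154 to 0.461) or the 15 other alternatives, among which it ranged from 0.74 to 1.33. Within slides it was 1.61, 0.53 and 1.58. HFepa minus HFoleic called 0 of 20192 genes (0%), and 9.96% of genes had an unadjusted p under 0.05, as did 3 of the 10 genes, Cyp7a1, Nr0b2 and Abcb4.

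Cyp8b1, the sterol 12-alpha-hydroxylase, was read from 1 probe at chromosome 9, 121824595 to 121824654, whose spot was an outlier on the arrays of reference replicate 6 and HFepa replicate 7, so that the fit dropped both. The signal ranged from 9.52 to 12.05 with a median of 11.80 in 8 reference mice, from 10.36 to 11.89 with a median of 11.07 in HFoleic mice, and from 11.09 to 11.83 with a median of 11.43 in 6 HFepa mice. Reference replicate 5 alone was at 9.52, and the next reference mouse at 11.67. With all mice, HFoleic minus reference was -0.49 (interval -1.09 to 0.10, limma adjusted p = 0.344), and 7 of 8 HFoleic mice were below the reference mean. Without reference replicate 5 it was -0.79 (adjusted p = 0.00981), and with arrays weighted by their quality -0.69 (adjusted p = 0.0429). The other 23 leave-outs did not call it. HFepa minus HFoleic was 0.35 (adjusted p = 0.752) and HFepa minus reference -0.14 (adjusted p = 0.902), or -0.43 without reference replicate 5 (adjusted p = 0.354).

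Without reference replicate 5, 1 of the 10 genes was called higher in HFoleic (Abcb11, 0.51, adjusted p = 0.00536) and 2 lower (Cyp7a1, -1.68, adjusted p = 0.00915, and Cyp8b1), and Slc27a5 was no longer called. Over the 24 leave-outs, 1201 to 2256 of all 20192 genes were called in HFoleic, in either direction. Cyp27a1, the mitochondrial sterol 27-hydroxylase of the alternative route (chromosome 1, 74782203 to 74782262), spanned 10.34 to 11.62 in the reference mice, 10.17 to 10.69 in HFoleic and 10.19 to 11.28 in HFepa. It was not measured in reference replicate 5 and HFoleic replicate 1, whose spots were outliers. The groups overlapped widely, and the HFoleic difference was -0.24 (adjusted p = 0.408).

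Cyp7b1, the oxysterol 7-alpha-hydroxylase, varied more between mice than between groups. Its probe at chromosome 3, 17972286 to 17972345, spanned 11.92 to 15.10 in the reference mice, 13.21 to 14.57 in HFoleic and 12.48 to 14.84 in HFepa. The group SDs were 0.90, 0.45 and 0.75, whereas the HFoleic difference was -0.05 (interval -0.73 to 0.64, adjusted p = 0.957) and the HFepa difference 0.10 (interval -0.61 to 0.81, adjusted p = 0.946). Its second probe gave -0.14 and 0.10. Without reference replicate 5 the differences were -0.28 in HFoleic (adjusted p = 0.633) and -0.13 in HFepa (adjusted p = 0.91), and -0.41 and -0.16 on the second probe.

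Of the conjugating enzymes, Slc27a5 was called higher in HFoleic and Baat was not called. Slc27a5, the bile acid coenzyme A ligase, was read at chromosome 7, 13573701 to 13573760. It spanned 16.50 to 16.96 with a median of 16.77 in the reference mice, 16.82 to 17.10 with a median of 16.92 in HFoleic and 16.85 to 16.94 with a median of 16.90 in HFepa. The rise in HFoleic was 0.17 (interval 0.06 to 0.28, limma adjusted p = 0.0489), with 8 of 8 mice above the reference mean. The call held in only 4 of 24 leave-outs, those of reference replicates 3 and 8 and HFoleic replicates 3 and 4 (adjusted p 0.0138 to 0.107 over all 24), and in 4 of 15 other alternatives. Within slides the rise was 0.33, 0.14 and 0.04. HFepa minus reference was 0.14 (adjusted p = 0.272), with 7 of 7 mice above the reference mean.

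Baat, which joins bile acids to taurine or glycine (chromosome 4, 49502933 to 49502992), spanned 10.83 to 11.71 in the reference mice, 11.14 to 11.60 in HFoleic and 11.33 to 11.60 in HFepa. Its lowest value was again that of reference replicate 5. The differences were -0.06 in HFoleic (adjusted p = 0.759) and 0.09 in HFepa (adjusted p = 0.752), and those of its second probe -0.04 and 0.01. Without that mouse they were -0.14 (adjusted p = 0.256) and 0.02 (adjusted p = 0.964), and -0.14 and -0.09 on the second probe.

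**Figure D2:**
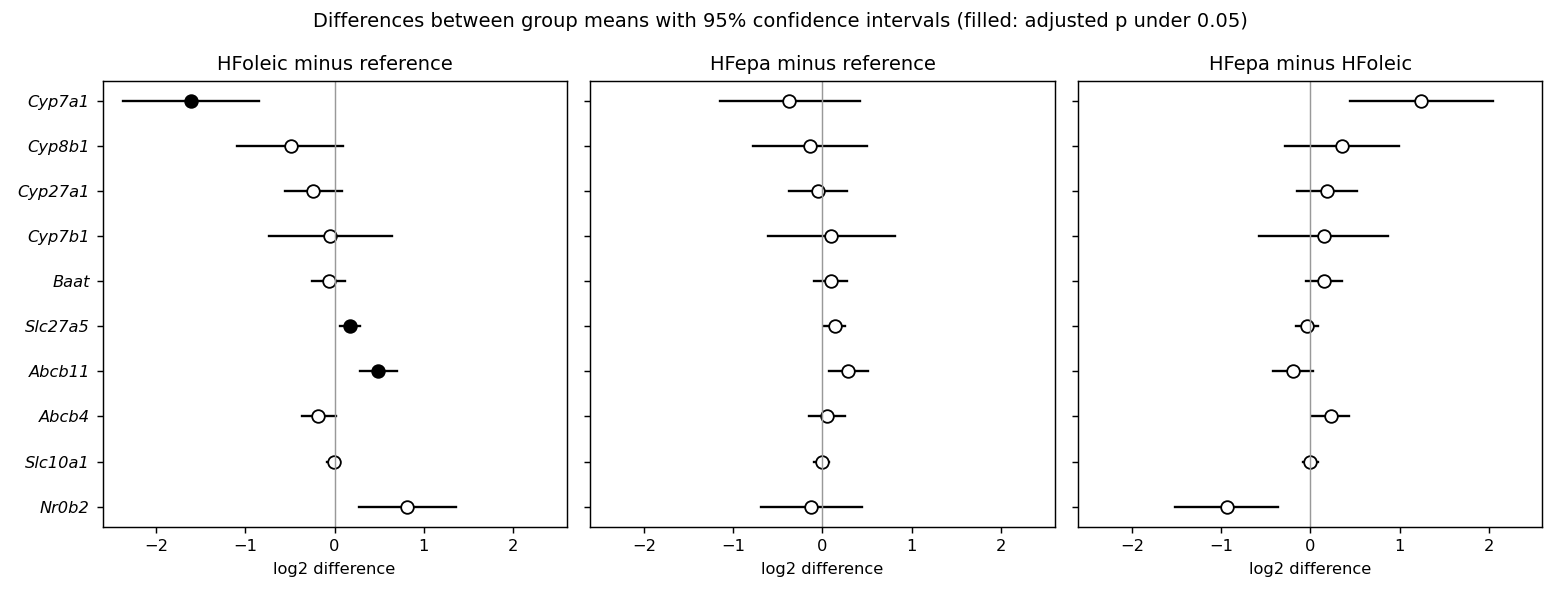
Differences between group means in log2 units (x axis) with 95% confidence intervals for the 10 genes (y axis) in the 3 comparisons (panels), with filled points where the limma adjusted p was under 0.05. Cyp7a1, Slc27a5 and Abcb11 are filled in HFoleic minus reference, and no gene is filled in the other panels, where Cyp7a1 at 1.24 and Nr0b2 at -0.94 lie farthest from 0 between HFepa and HFoleic.

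Abcb11 was the transporter that rose. Its probe, at chromosome 2, 69076390 to 69076449, spanned 14 to 14.51 with a median of 14.08 in the reference mice, 14.35 to 15.02 with a median of 14.63 in HFoleic and 14.12 to 14.70 with a median of 14.45 in HFepa. Of the HFoleic mice, 5 of 8 exceeded every reference mouse, and 7 of 9 reference mice were below every HFoleic mouse. HFoleic minus reference was 0.49 (SE 0.10, interval 0.28 to 0.70, limma adjusted p = 0.00529), a fold of 1.40, with 8 of 8 mice above the reference mean. The call held in 24 of 24 leave-outs (0.44 to 0.53) and in 15 of 15 other alternatives (0.47 to 0.52). The size differed between slides, at 0.79, 0.53 and 0.13 within slides 1, 2 and 3.

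In HFepa mice Abcb11 was 0.29 above the reference (interval 0.07 to 0.51, adjusted p = 0.215), with 6 of 7 mice above the reference mean. Only 2 of the 10 genes, Abcb11 and Slc27a5, had an unadjusted p under 0.05 in HFepa minus reference, where 14% of all genes did, and 0.198% of all genes were called higher and 0.193% lower. HFepa minus HFoleic was -0.20 for Abcb11 (adjusted p = 0.573).

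Abcb4, the phospholipid floppase of the canaliculus (chromosome 5, 8959108 to 8959167), spanned 15.08 to 15.56 with a median of 15.26 in the reference mice, 14.72 to 15.51 with a median of 15.09 in HFoleic and 15.13 to 15.47 with a median of 15.39 in HFepa. In HFoleic, 4 of 8 mice were below every reference mouse, and the difference was -0.18 (interval -0.37 to 0.02, adjusted p = 0.285). Its other probes gave -0.17 (adjusted p = 0.415) and -0.25 (adjusted p = 0.185). HFepa minus HFoleic was 0.23 (adjusted p = 0.449), with 7 of 7 mice above the HFoleic mean, and 0.16 and 0.19 on the other probes.

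Slc10a1 (NTCP), the sodium-dependent uptake carrier, was read at chromosome 12, 82056539 to 82056598, from a probe with only 22 of 30003 above it in rank. All mice lay between 17.80 and 18.01, and the differences were -0.01 in HFoleic (interval -0.09 to 0.06) and -0.01 in HFepa (interval -0.09 to 0.07). Quantile normalization sets a signal by its rank on the array, and its part in this narrow range was not tested. Over the 15 other alternatives the HFoleic difference ranged from -0.02 to 0.11. The 0.11 came from the mean of all its probes, which was still quantile normalized. The values with scalings other than quantile normalization are listed with the sign changes at the end. The second probe spanned 13.41 to 15.21 in the reference mice and 14.70 to 15.13 in the others, with 13.41 being reference replicate 5, and its HFoleic difference was 0.23 (adjusted p = 0.438), or 0.06 without that mouse (adjusted p = 0.687).

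Nr0b2 (SHP), the repressor in the feedback on bile acid synthesis, was read at chromosome 4, 133109694 to 133109753 (plus strand), and its promoter is the first of those printed above. Its log2 signal spanned 7.48 to 9.84 with a median of 8.50 in the reference mice, 8.28 to 9.78 with a median of 9.30 in HFoleic and 7.65 to 8.70 with a median of 8.42 in HFepa. Reference replicate 8 held the highest value of all mice, and HFoleic replicate 5 the lowest of its group. Of the HFoleic mice with Cyp7a1 inside the reference range, replicate 5 had Nr0b2 at 8.28 and replicate 6 at 9.21. HFoleic minus reference was 0.81 (SE 0.26, interval 0.27 to 1.36), 1.76-fold, and did not pass the threshold (limma adjusted p = 0.0607), with 7 of 8 mice above the reference mean. It passed without reference replicate 8 (0.99, adjusted p = 0.00701) and without HFoleic replicate 5 (0.95, adjusted p = 0.0269), and in the other 22 leave-outs it did not (up to 0.123).

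Between the high-fat groups, 7 of 8 HFoleic mice exceeded every HFepa mouse for Nr0b2. HFepa minus HFoleic was -0.94 (interval -1.52 to -0.36, limma adjusted p = 0.25), and 7 of 7 HFepa mice were below the HFoleic mean. It was -1.27, -0.33 and -1.24 within slides 1, 2 and 3, and the adjusted p ranged from 0.139 to 0.468 over the leave-outs. HFepa minus reference was -0.13 (interval -0.69 to 0.44, adjusted p = 0.899).

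**Figure D3:**
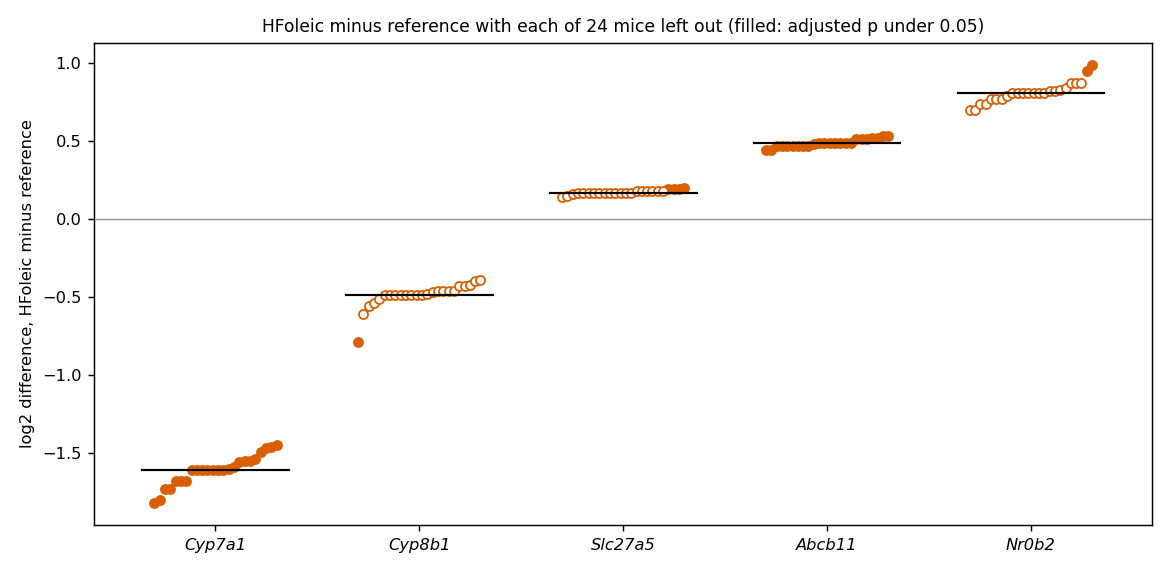
HFoleic minus reference in log2 units (y axis) for 5 genes (x axis) with each of the 24 mice left out in turn (points, filled where the limma adjusted p was under 0.05), and with all mice (line). Cyp7a1 and Abcb11 stay filled in all 24, Slc27a5 is filled in 4 and Nr0b2 in 2, and Cyp8b1 is filled only without reference replicate 5, at -0.79.

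Genes that varied together within groups were sought by correlating the deviations of each mouse from its group mean, over the 45 pairs of the 10 genes, with two-sided permutation within groups. By Spearman's rho, 2 pairs passed after Benjamini-Hochberg adjustment over the 45, and by Pearson's r 0 did, with 8 pairs at an unadjusted p under 0.05 by either. Cyp7a1 and Cyp8b1, both targets of SHP, varied in the same direction (22 mice, rho 0.68, permutation p = 0.00064, adjusted 0.0178; r 0.50, permutation p = 0.0221, adjusted 0.147; r 0.51 without the 2 mice farthest from the median of Cyp7a1). The rho was 0.74, 0.76 and 0.66 within the reference, HFoleic and HFepa mice. Cyp8b1 and Abcb11 varied in opposite directions (22 mice, rho -0.69, permutation p = 0.00079, adjusted 0.0178; r -0.55, permutation p = 0.00679, adjusted 0.141; r -0.69 without the 2 farthest mice), with a rho of -0.48, -0.76 and -0.60 within the groups. The first pair lost its call in 5 of 24 leave-outs (without reference replicates 7 and 9, HFoleic replicates 5 and 6 and HFepa replicate 3, adjusted p up to 0.116) and the second in 9 (without reference replicates 3, 5, 7, 8 and 9, HFoleic replicates 4, 5 and 6 and HFepa replicate 3, adjusted p up to 0.153). Cyp7a1 and Abcb11 (rho -0.51, adjusted permutation p = 0.119) and Cyp7a1 and Nr0b2 (rho -0.28, adjusted permutation p = 0.576) were not past the threshold.

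**Figure D4:**
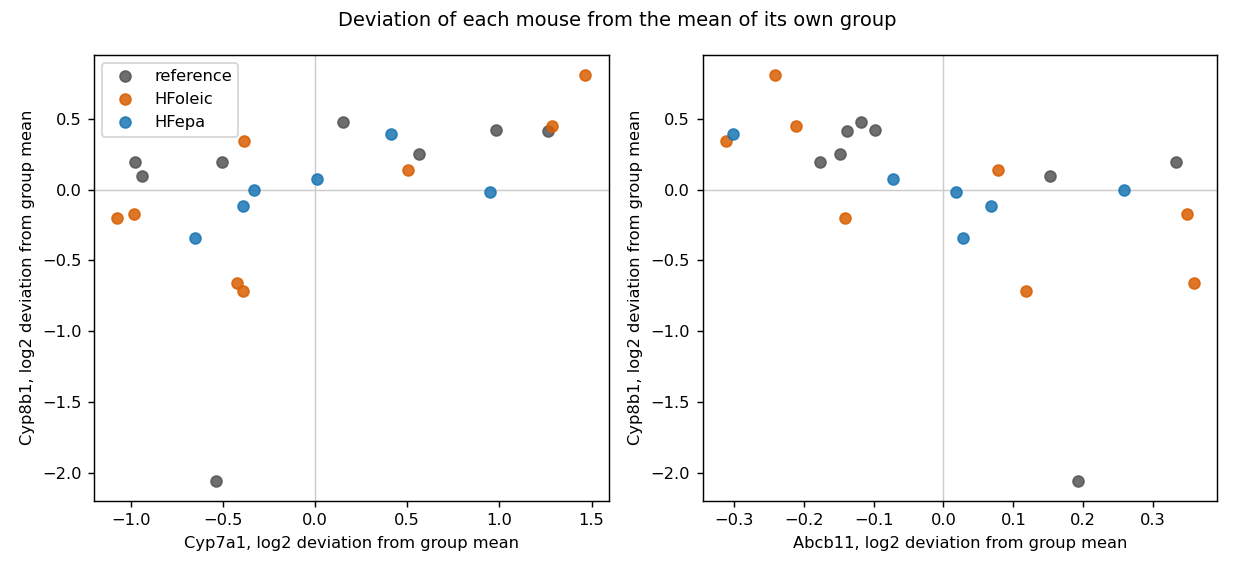
Deviation of each of 22 mice from the mean of its own group, in log2 units, for Cyp8b1 (y axes) against Cyp7a1 (left) and against Abcb11 (right), coloured by group. The points rise from left to right for Cyp7a1 (rho 0.68) and fall for Abcb11 (rho -0.69), with reference replicate 5 at the bottom of both panels.

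Over the same deviations, the genes most like each member were listed as a description, by Pearson's r over 24 mice, or 22 for Cyp8b1 and Cyp27a1. For Cyp7a1 they were Slc29a1 (0.72), Cd320 (0.68) and Gpr137 (0.68). For Cyp8b1 they were Plbd1 (0.88), Pon1 (0.88) and Dock3 (0.86), for Cyp27a1 Pdgfc (0.78) and for Cyp7b1 Olfr1535 (0.88), Lifr (0.85) and Mup11 (0.83). For Abcb11 they were Tmem98 (0.79), B4galt5 (0.75) and Nup160 (0.75), for Abcb4 Acot2 (0.89), Heca (0.87) and Rnf11 (0.86), and for Baat Eif3f (0.86). Slc10a1 was led by Srsf1 (0.81), Slc27a5 by A230006K03Rik (0.88) and Nr0b2 by an expressed sequence, CB566291 (0.79), followed by Vpreb3 (0.73). Reference replicate 5, the lowest mouse for Cyp8b1, Cyp7b1, Baat and Slc27a5, entered these values for every member but Cyp27a1. The ranking was not repeated without it or by rho, so its part in these values was not tested. Between Cyp8b1 and Baat, for example, r was 0.57 but rho 0.07.

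The wider bile acid pathway was read from 8 further lists, of which 68 of 75 genes were tested. In HFoleic minus reference 8 of the 68 were called higher and 2 lower (4.52% and 3.55% of all genes), while 24 had an unadjusted p under 0.05 (22.3% of all genes), and the median difference was 0.09. In HFepa minus reference and HFepa minus HFoleic 0 were called, with 14 and 8 of the 68 at an unadjusted p under 0.05 (14% and 9.96% of all genes). Of 14 further synthesis enzymes 2 were called, both higher. Hsd3b7, which isomerises the sterol ring after 7-alpha-hydroxylation, spanned 15.68 to 15.99 with a median of 15.75 in the reference mice and 15.98 to 16.22 with a median of 16.16 in HFoleic (0.33, limma adjusted p = 0.00344, 8 of 8 mice above the reference mean). Akr1c6, a ketosteroid reductase, rose by 0.53 (adjusted p = 0.00224) from a median of 16.79 to one of 17.30. Both calls held in 24 of 24 leave-outs and 15 of 15 other alternatives. In HFepa these genes differed from the reference by 0.12 (adjusted p = 0.443) and 0.36 (adjusted p = 0.0994). Cyp39a1, which hydroxylates another oxysterol, had the largest difference of this list between HFepa and HFoleic (0.38, adjusted p = 0.605).

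Of 5 further uptake carriers 1 was called higher, where 4.52% of all genes were. Slco1b2 (OATP1B2) spanned 14.46 to 16.09 in the reference mice and 15.91 to 16.24 in HFoleic (0.51, limma adjusted p = 0.0275, 8 of 8 mice). The 14.46 was reference replicate 5, with the other reference mice at 15.44 to 16.09. Without it the difference was 0.37, the lowest of the leave-outs, and still called. The call was lost without HFoleic replicate 8 (adjusted p = 0.0575) and in 7 of 15 other alternatives (adjusted p up to 0.254, with the mean of all its probes, at 0.27). Slco1a1 (0.89 in HFoleic, adjusted p = 0.419, and -0.29 between HFepa and HFoleic) and Slco1a4 (-0.80 in HFepa minus reference, adjusted p = 0.276) had the largest differences of this list. Reference replicate 5 was at 5.99 for Slco1a1 and the other reference mice at 10.59 to 12.39, and without it the HFoleic difference was 0.25 (adjusted p = 0.64), while Slco1a4 was not measured in that mouse. None of 8 canalicular lipid and organic anion transporters and none of 3 measured basolateral exporters was called in any comparison by limma. In HFoleic 2 of those 8 (Abcg8 led, 0.33, adjusted p = 0.168) and 1 of the 3 exporters (Abcc3, 0.37, adjusted p = 0.109) had an unadjusted p under 0.05, as did 2 and 1 in HFepa minus reference and 0 in HFepa minus HFoleic. Of all genes, 22.3%, 14% and 9.96% did in these comparisons. Without reference replicate 5, Abcg8 was called in HFoleic (0.43, adjusted p = 0.0224) and was 0.26 in HFepa minus reference (adjusted p = 0.379). In HFepa, Abcg8 differed from the reference by 0.15 and Abcc3 by 0.31 (adjusted p = 0.342), and the largest differences from HFoleic were those of Abcg5 (-0.20) and Slc51b (-0.11).

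Of 20 regulators, 1 was called higher and 2 lower in HFoleic (4.52% and 3.55% of all genes). Prox1, a homeobox factor that represses Cyp7a1 with other receptors, fell by 0.40 (limma adjusted p = 0.0114), from 11.12 to 11.89 in the reference mice to 10.76 to 11.27 in HFoleic, and spanned 11.37 to 11.86 in HFepa. No HFepa mouse overlapped the HFoleic mice on this probe, as for 0.139% of all genes, and the difference of 0.61 had an adjusted p of 0.0506. Ppargc1a, a coactivator of fasting metabolism, fell by 0.54 in HFoleic (adjusted p = 0.0296), a call lost in 6 of 24 leave-outs (without reference replicates 1 and 7 and HFoleic replicates 2, 3, 4 and 8, adjusted p up to 0.0655) and in 4 of 15 other alternatives (up to 0.0917), and was -0.62 in HFepa minus reference (adjusted p = 0.07). The paper's RT-qPCR of Ppargc1a marked no significant change in HFoleic against the reference. Mafg, a small Maf factor that represses bile acid synthesis genes, rose by 0.25 (adjusted p = 0.0168). The receptors and coreceptors of the feedback were not called, with HFoleic differences of -0.11 for the bile acid receptor Nr1h4, 0.10 for Nr5a2, 0.20 for Hnf4a (adjusted p = 0.169), 0.23 for the FGF15 receptor Fgfr4 (adjusted p = 0.0829) and -0.19 for its partner Klb. Without reference replicate 5, Fgfr4 was called (0.27, adjusted p = 0.0278) and Nr1h4 was at -0.17 (adjusted p = 0.133). The regulator with the largest difference was the clock factor Dbp, at 1.60 in HFoleic (adjusted p = 0.125), 0.76 in HFepa and -0.83 between them.

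Cholesterol supply held 3 called genes of 13, all higher in HFoleic, where 4.52% of all genes were called higher. Stard5 was at -0.29 in HFoleic (limma adjusted p = 0.0646), and without reference replicate 5 it was called lower (-0.35, adjusted p = 0.0211). Stard4, a cytosolic cholesterol carrier, spanned 8.64 to 10.32 with a median of 9.63 in the reference mice and 10.59 to 11.86 with a median of 10.74 in HFoleic, without overlap, as for 0.579% of all genes (1.28, limma adjusted p = 0.000732). In HFepa it was 0.88 above the reference (adjusted p = 0.0556, 7 of 7 mice). Soat2, which esterifies cholesterol, rose by 0.37 at the edge of the threshold, a call that 19 of 24 leave-outs lost (adjusted p 0.0062 to 0.104; kept without reference replicates 6 and 8, HFoleic replicates 2 and 6 and HFepa replicate 3), as did 8 of 15 other alternatives (up to 0.117).

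Of 7 sulfation genes 3 were tested and none was called by limma, with 1 at an unadjusted p under 0.05, in HFoleic, as were 22.3% of all genes. Sult2a7 differed by 0.66 in HFoleic (adjusted p = 0.211) and by -0.66 between HFepa and HFoleic (adjusted p = 0.519). Sult2a8 differed by 0.66 in HFoleic (adjusted p = 0.401) and by 0.62 in HFepa minus reference (adjusted p = 0.587). Without reference replicate 5, which was at 5.94 for Sult2a7 (other reference mice 7.38 to 9.02), the HFoleic differences were 0.41 for Sult2a7 (adjusted p = 0.33) and 0.16 for Sult2a8 (adjusted p = 0.274), and HFepa minus reference was 0.12 for Sult2a8 (adjusted p = 0.602). Of 3 ileal bile acid genes 2 were tested. Slc10a2 (ASBT), the apical uptake carrier of ileum and bile duct, rose from a median of 8.53 (8.14 to 9.53) in the reference mice to 9.64 (8.94 to 10.07) in HFoleic (0.96, limma adjusted p = 0.00303, 8 of 8 mice), and the call held in 24 of 24 leave-outs. In HFepa it was 0.39 above the reference (6 mice, adjusted p = 0.408) and -0.57 from HFoleic (adjusted p = 0.34). The ileal hormone Fgf15 did not pass the filter on dim probes.

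**Figure D5:**
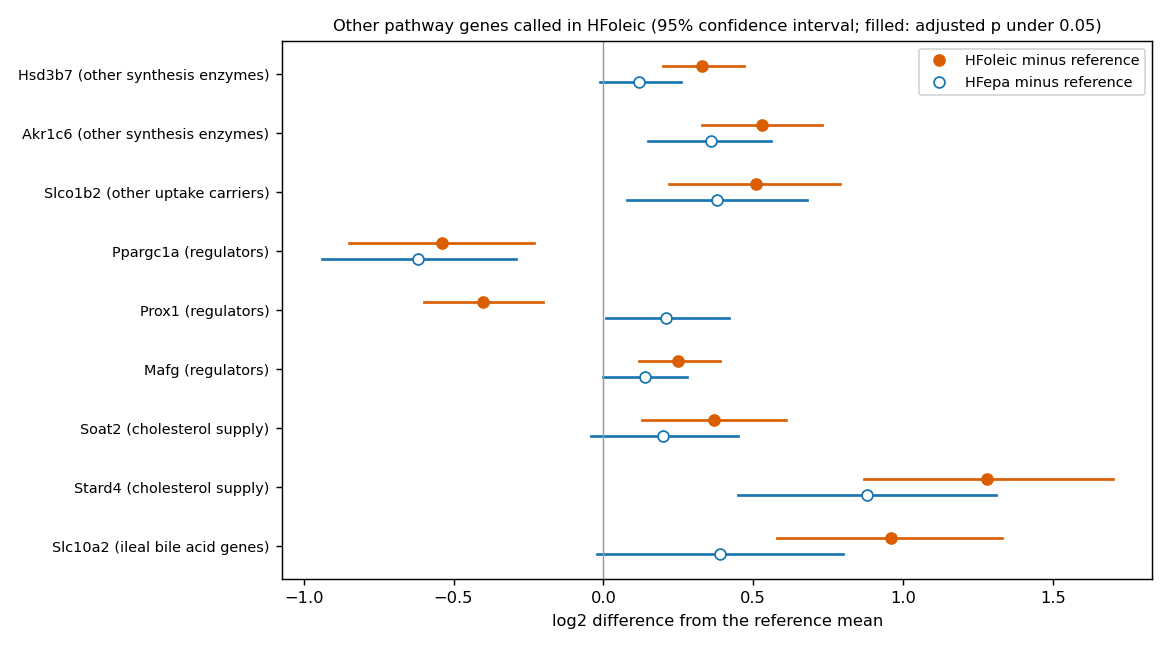
Differences from the reference mean in log2 units (x axis) with 95% confidence intervals, in HFoleic and HFepa mice, for 9 of the 10 further pathway genes called in HFoleic (y axis, with their list), filled where the limma adjusted p was under 0.05. Prox1 lies at -0.40 in HFoleic and at 0.21 in HFepa, and Ppargc1a at -0.54 and -0.62.

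Marker genes were also called in HFoleic, where 4.52% of all genes were called higher and 3.55% lower. An unadjusted limma p under 0.05 was reached by 22.3% of all genes. Of 8 hepatocyte markers 1 was called lower, the urea cycle enzyme Cps1 (-0.89, limma adjusted p = 0.00166), and of 6 stellate cell markers 1 higher, the retinol esterifying enzyme Lrat (0.56, adjusted p = 0.0015). Of 7 periportal hepatocyte genes, 3 were called lower (Sds, -0.96, Pck1, -0.74, and Gls2, -0.48) and 1 higher (Ctsc, 0.53), and the mean log2 signal of the list spanned 13.98 to 14.73 in the reference mice, 13.82 to 14.20 in HFoleic and 13.89 to 14.25 in HFepa. Of 7 pericentral genes 1 was called higher (Rgn, 0.49), with spans of 12.66 to 13.70, 13.23 to 13.60 and 13.27 to 13.62. Of 8 clock genes of the Per and Dbp phase 1 was called higher (Nr1d2, 0.58), 6 had an unadjusted p under 0.05, and the list spanned 9.04 to 10.48 in the reference mice, 9.69 to 10.85 in HFoleic and 9.46 to 11.09 in HFepa. With the clock score of each mouse as a covariate, an alternative chosen after seeing the data, the HFoleic difference of Cyp7a1 was -1.91 (limma adjusted p = 0.0105) and that of Abcb11 0.52 (adjusted p = 0.0156). The part of zonation in these values was not tested. Of 4 measured cholangiocyte genes 1 was called lower (Sox9, -0.65), with spans of 7.30 to 9.36, 7.43 to 7.81 and 7.51 to 7.96. Reference replicate 5 set an end of the reference spans, at 14.73 (periportal), 12.66 (pericentral), 9.04 (clock) and 9.36 (cholangiocyte). Without it the differences were -0.48 for Sox9 (limma adjusted p = 0.015), 0.49 for Nr1d2 (0.0144) and -0.84 for Cps1 (0.00284). It was also the highest reference mouse for Sds, Gls2 and Pck1 and the lowest for Ctsc and Rgn. The differences of these genes are given only with it.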

How the data were processed

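For each mouse the authors deposited scanner output (Agilent Feature Extraction 10.10.1.1, per the labels) in which spot signals are intensities without normalization. A second deposited file holds log2 values that had been filtered and quantile normalized, and served as an alternative. Spots of the same probe were averaged on log2 median signal, leaving out outlier spots (134 to 627 per array). A probe was kept if it was well above background on 75% or more of the arrays in any group, and quantile normalization followed. Groups came from the labels. Limma 3.58.1 (R 4.3.3) fitted group means over 24 arrays, two-sided, with Benjamini-Hochberg adjustment over 30003 probes. A gene was read from its brightest tested probe, with its other probes beside it. Correlations used 100000 permutations (Python 3.11.15, numpy 2.4.6, pandas 2.3.3, scipy 1.17.1), and figures matplotlib 3.10.9. Fits were tested on simulated data. Alternatives were other signals, backgrounds, scalings, filters, blocks, weights, tests and probe rules, and leaving out each mouse. Members and lists were chosen with earlier results of these data known. Named were all members, the called genes of the pathway lists and those with the largest difference per list, and up to 3 genes most like each member, but 1 called gene is not reported here. Probe positions are those of the files (mm9). The number of arrays limits the precision.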

Additional observations from a re-analysis of the deposited data

Results flagged for a closer look

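In 30 groups of mice (10 genes in 3 groups), the highest or lowest value was set against Dixon's 95% critical value for its gap to the nearest mouse, and 3 exceeded it, where chance gives about 1 in 20. Cyp8b1 in the reference group had its lowest value in replicate 5, at 9.52, with the next at 11.67, so that the gap was 0.85 of the range. Baat in the reference group had its lowest value in the same replicate, at 10.83, with the next at 11.32, and a gap of 0.56 of the range. Cyp27a1 in the reference group had its highest value in replicate 6, at 11.62, with the next at 10.79, and a gap of 0.65 of the range.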

How the results depend on the processing

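Of 1170 values of the 10 genes under alternatives, 1092 kept their direction and their side of the threshold, 31 lost and 5 gained a call, and 42 changed sign, all from a difference of at most 0.19 log2 units. Sign changes were Slc10a1 in HFoleic minus reference (0.02 with the processed signal, 0.00 with 75th percentile scaling, 0.11 with the mean of all probes, 0.01 with the clock score), in HFepa minus reference (0.00 with array weights, 0.06, 0.01) and in HFepa minus HFoleic (-0.03, -0.03, -0.04 and 0.00), Baat in HFoleic (0.00 with the processed signal), Slc27a5 between the high-fat groups (0.00 with 75th percentile scaling), Cyp27a1 (0.01 with array weights and 0.04 with the clock score in HFepa, -0.02 between the high-fat groups with outlier spots kept), Cyp7b1 (0.06 with the clock score in HFoleic, -0.01 with array weights in HFepa), and Abcb4 (-0.01 in HFepa with the mean of all probes). Over the leave-outs Cyp7b1 ranged from -0.28 to 0.12, -0.13 to 0.32 and -0.02 to 0.37 in the 3 comparisons, Cyp27a1 in HFepa from -0.15 to 0.07, Nr0b2 in HFepa from -0.24 to 0.05, and Slc10a1 from -0.02 to 0.00 in HFepa and -0.01 to 0.02 between the high-fat groups.

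Called members in HFoleic were 2 to 4 over all alternatives, and 0 in both other comparisons. Called pathway genes in HFoleic were 7 to 13 over the leave-outs and 6 to 15 over the other alternatives, with 6 being that with the clock score. In HFepa minus reference they were 1 with array weights, with the replicate block and with the mean of all probes, and 0 to 3 over the leave-outs, and in HFepa minus HFoleic 1 with the stricter filter and with array weights, and 0 to 1. All called genes in HFoleic were 700 to 2178 over the other alternatives (1072 without a filter, 700 with the clock score) and 1201 to 2256 over the leave-outs, against 1629. In HFepa minus reference they were 79, but 34 with the processed signal, 0 without a filter, 0 by the methods' t-test, 120 with array weights, 5 with only the 2 groups compared, 4 with the clock score and 0 to 367 over the leave-outs, and in HFepa minus HFoleic 2 with the stricter filter, 48 with array weights, 1 with the mean of all probes and 0 to 12. Pairs past the threshold were 5 by r and 6 by rho with the processed signal, 5 and 7 with 75th percentile scaling, and 0 to 1 and 0 to 4 over the leave-outs. The cause was not tested.

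Replicate numbers did not pair the mice: same-numbered mice correlated between -0.298 and 0.348, and at most 1 of 8 correlated best with its own number. With the replicate block, Nr0b2 was called in HFoleic (0.87, adjusted p = 0.0354) and was 0.05 in HFepa minus reference, Slc27a5 (0.18, adjusted p = 0.0972), Mafg (adjusted p = 0.0536) and Soat2 (0.0959) were not called, and Cyp7b1 in HFoleic and Slc10a1 between the high-fat groups were at 0.00.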
